A study of Danio rerio with 170 samples.

Results

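Benzo[j]fluoranthene (BjF) is a polycyclic aromatic hydrocarbon made of fused aromatic rings without side chains. The 4 BjF libraries, of 170 in the series, came from whole Tropical 5D wildtype zebrafish exposed to 14.9 µM BjF and collected at 48 h post fertilization (hpf). They were set against the 3 vehicle libraries that the study assigns to this exposure, here called DMSO_A (1% DMSO, 48 hpf). The second contrast was with 4 libraries of embryos exposed to 12.2 µM Retene, an alkylated phenanthrene, which share the DMSO_A controls and the age. The labels name no transgene, mutation or second agent in any of these groups, and what they share is the vehicle, the strain and the age. Per the study's methods, concentrations of most aromatic hydrocarbons came from a morphology screen, either one that affected most embryos or, where none did, the highest one screened, and the BjF and Retene doses differ in µM. The labels do not say how many embryos were pooled or whether libraries came from separate clutches. The p-values then measure only the spread between libraries within groups, pooled over all 70 libraries of the experiment that BjF belongs to. Another vehicle group of the same experiment, DMSO_B (1% DMSO, 4 libraries), was used as a second reference.

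Many aromatic hydrocarbons and dioxins bind the aryl hydrocarbon receptor (AHR), a ligand-activated transcription factor that enters the nucleus, pairs with ARNT and switches on a battery of genes. In zebrafish AHR2 is the receptor through which dioxin disturbs heart, jaw and vascular development. Cytochrome P450 enzymes of the CYP1 family are the best-known targets and oxidize the ligands, conjugating enzymes then make the products soluble, and the AHR repressors feed back on the receptor.

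The unit throughout is the normalized read, a read count divided by a factor that corrects for library depth. Fold changes are differences of log2(normalized reads + 1), which understates the change of genes with few reads. All 70 libraries of the experiment that BjF belongs to were fitted together with limma, so the groups share 1 estimate of spread, and p-values are two-sided and adjusted by Benjamini-Hochberg over 21854 genes. Genes were called differentially expressed (DEGs) where the adjusted p was below 0.05 and the log2 fold change (log2FC) was beyond 1 in either direction. Under an alternative, a call is said to be lost where the adjusted p reached 0.05 or the sign changed, whatever the fold change. The BjF libraries held 18080258 to 22807938 reads, the Retene libraries 15601094 to 19150892 and the DMSO_A libraries 15080232 to 17578612. None of the 15 tissue markers of the whole embryo passed the test in BjF against DMSO_A, beside 0.760% of all genes. At that share few calls are expected among 15 genes, so the count says little about tissue make-up. The log2FC of the markers lay between -0.38 (fabp10a, liver) and 0.38 (tyrp1b, pigment cells). Markers of muscle, neurons, lens, blood, endothelium, skin and hatching gland were all present. The liver and pancreas markers fabp10a and prss1 were low in every group, at 5.21 to 16.03 and 11.7 to 15.6 normalized reads in BjF embryos. In whole embryos, fewer cells of a type and less RNA per cell cannot be told apart.

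In BjF embryos cyp1a, the hallmark AHR target, was about 204-fold higher than in DMSO_A embryos. It had 33473, 33702, 37629 and 36154 normalized reads in the BjF libraries, against 132, 260 and 127 in the DMSO_A libraries. The groups lay far apart, and the spread among BjF libraries was small beside the difference (log2FC 7.74 ± 0.42 SE, limma adjusted p = 1.59e-22). The DMSO_A library with the highest cyp1a, replicate 3, held 260 normalized reads. The 2 BjF libraries and the 1 DMSO_A library sequenced in lane 5 differed by 7.09 on the same log2 scale. The transcript took 0.265% to 0.3% of all reads in BjF libraries and 0.00102% to 0.00210% in DMSO_A libraries.

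The other induced CYP1 enzymes rose much less. Expression of cyp1c1 was 1330, 1441, 1436 and 1471 normalized reads in BjF embryos, against 127, 169 and 137 in DMSO_A embryos (log2FC 3.30 ± 0.18 SE, limma adjusted p = 3.14e-22). Its tandem neighbour cyp1c2 had 293.4, 265.5, 320.5 and 271.9 normalized reads in BjF embryos and 54.1, 40.7 and 55.1 in DMSO_A embryos (log2FC 2.51 ± 0.17 SE, adjusted p = 3.54e-18). No BjF library of either gene overlapped a DMSO_A library, beside 8.02% of all genes with every BjF library above every DMSO_A library. Reads of these similar neighbours could have been divided between them in counting. By contrast cyp1d1 had 253 to 298 normalized reads in BjF embryos and 244 to 316 in DMSO_A embryos, with a log2FC of -0.03 (adjusted p = 0.932). Of the 5 CYP1 genes listed, 4 were measured and 3 rose, and cyp1b1 was not analysed here. These 3 stand beside the 0.480% of all genes that rose at an adjusted p under 0.05, which are 105 of 21854, and the 0.220% that were higher DEGs.

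All 3 AHR repressors rose, beside 0.480% of all genes. The AHR repressor gene ahrra had 340.4, 340, 297 and 342 normalized reads in BjF embryos, against 13.5, 19.1 and 19.75 in DMSO_A embryos (log2FC 4.18 ± 0.30 SE, adjusted p = 2.48e-17). Its paralogue ahrrb was far less abundant at 21.0, 20.2, 15.6 and 16.7 normalized reads in BjF embryos, against 3.56, 6.38 and 4.94 in DMSO_A embryos (log2FC 1.72, adjusted p = 0.0038), a call lost without DMSO_A replicate 2. The third, tiparp, an ADP-ribosyltransferase known in mouse and human to modify and repress AHR, had 255 to 313 normalized reads in BjF embryos and 196 to 212 in DMSO_A embryos (log2FC 0.49, adjusted p = 0.00324), a call lost without DMSO_A replicate 4.

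The receptors and their partners did not pass the test. The main receptor ahr2 had 2346, 2375, 2379 and 2331 normalized reads in BjF embryos, against 1773, 2022 and 1970 in DMSO_A embryos. Every BjF library was above every DMSO_A library, and the log2FC of 0.30 had an adjusted p of 0.188. The DMSO_B libraries held 1607 to 1818 normalized reads of ahr2, and against them the log2FC was 0.47 (adjusted p = 0.00287). BjF libraries lay above all 3 DMSO_A libraries in 8.02% of all genes. The other 4, ahr1a, ahr1b, arnt and arnt2, had log2FC between -0.07 and 1.53, with the highest value for ahr1a, which had 6.08 to 7.67 normalized reads in BjF embryos and 0.712 to 5.76 in DMSO_A embryos (adjusted p = 0.262).

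**Figure D1:**
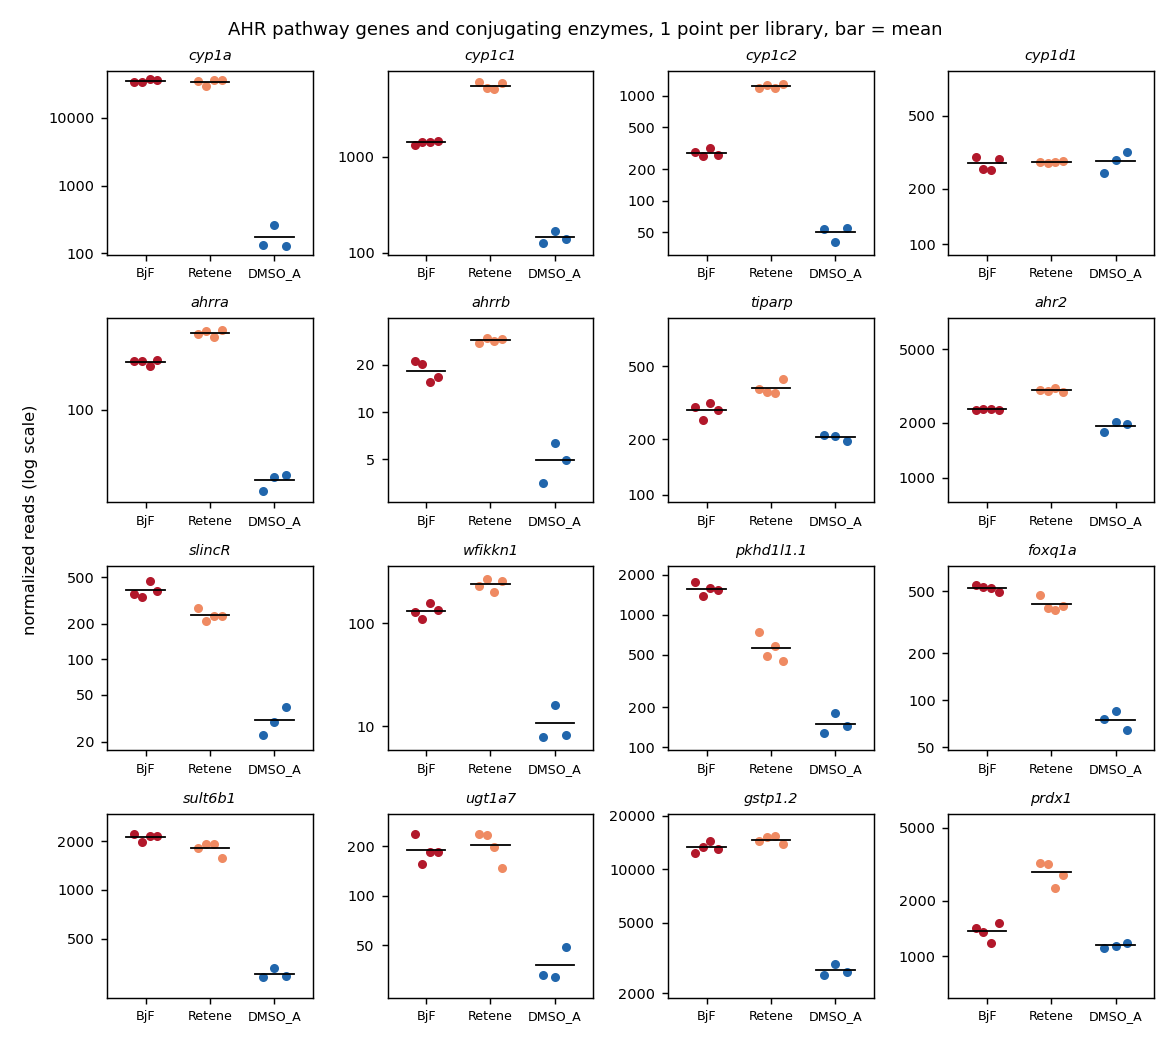
Normalized reads (log scale, each panel with its own range) of 16 genes in the 4 BjF, 4 Retene and 3 DMSO_A libraries, with a bar at each group mean. The cyp1a points of BjF and Retene overlap at 29591 to 37629, whereas the cyp1c1, cyp1c2, ahrra and prdx1 points of BjF all lie below those of Retene, and cyp1d1 is level in the 3 groups.

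Developmental genes linked to AHR rose as well. The long noncoding RNA slincR, named for its place beside sox9b, had 361, 340.4, 467 and 383 normalized reads in BjF embryos, against 22.8, 29.5 and 39.5 in DMSO_A embryos (log2FC 3.64 ± 0.30 SE, adjusted p = 1.54e-14). The secreted inhibitor of TGF-beta family growth factors wfikkn1 had 129, 111, 158 and 137 normalized reads in BjF embryos, against 7.83, 15.95 and 8.23 in DMSO_A embryos (log2FC 3.58 ± 0.34 SE, adjusted p = 2.71e-12). The forkhead factor foxq1a, expressed in the developing jaw, had 547, 530.4, 529 and 494 normalized reads in BjF embryos, against 75.4, 85.3 and 64.2 in DMSO_A embryos (log2FC 2.80 ± 0.19 SE, adjusted p = 6.21e-18). In each of the 3 genes the lowest BjF library was several times the highest DMSO_A library.

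Another developmental gene of the list, pkhd1l1.1, encodes a large fibrocystin-like membrane protein. It had 1751, 1376, 1602 and 1545 normalized reads in BjF embryos, against 127, 180.2 and 144 in DMSO_A embryos (log2FC 3.38 ± 0.23 SE, adjusted p = 3.28e-18). A second copy, pkhd1l1.2, had 23.7 to 41.65 normalized reads in BjF embryos and 6.41 to 10.4 in DMSO_A embryos (log2FC 1.94, adjusted p = 0.0225). Reads of near-identical copies can be split between them or dropped in counting, so how the change divides between the copies is uncertain, and the call of pkhd1l1.2 was lost with a lane term or without any 1 of 5 libraries. The growth factor gene fgf7 had 55.3, 62.5, 77.8 and 86.4 normalized reads in BjF embryos, against 13.5, 7.97 and 11.5 in DMSO_A embryos (log2FC 2.58 ± 0.33 SE, adjusted p = 1.42e-07).

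Smaller rises were called in mamdc2b and edn1, both of which depended on the vehicle group. The extracellular matrix gene mamdc2b had 39.2, 33.8, 47.9 and 55.1 normalized reads in BjF embryos, against 12.1, 10.4 and 19.75 in DMSO_A embryos and 25.45 to 30.5 in DMSO_B embryos. Its log2FC was 1.60 against DMSO_A (adjusted p = 0.000504) and 0.59 against DMSO_B (adjusted p = 0.506). The endothelin gene edn1, which patterns the lower jaw, had 75.3 to 97.0 normalized reads in BjF embryos, 35.1 to 50.2 in DMSO_A embryos and 47.7 to 69.45 in DMSO_B embryos (log2FC 1.01 against DMSO_A, adjusted p = 0.000725, and 0.54 against DMSO_B, adjusted p = 0.187). Of the 12 AHR-linked developmental genes, 7 rose and none fell, beside 0.480% of all genes that rose. The list median was a log2FC of 1.31, beside -0.01 over all genes. The list was chosen with earlier results known, and the study named several members from a network of these libraries among others. The count and the median are therefore not independent evidence. Against DMSO_B the list median was 0.58. The 5 that did not pass were sox9a, sox9b, foxq1b, ptgs2a and ptgs2b, with log2FC between -0.14 for sox9b and 0.70 for ptgs2b.

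Among conjugating enzymes, 1 gene of each class rose strongly. The sulfotransferase sult6b1 had 2222, 1960, 2137 and 2146 normalized reads in BjF embryos, against 289, 328.5 and 294 in DMSO_A embryos (log2FC 2.80 ± 0.16 SE, adjusted p = 2.03e-21). The UDP-glucuronosyltransferase ugt1a7 had 238, 156, 185 and 185 normalized reads in BjF embryos, against 32.7, 31.9 and 48.55 in DMSO_A embryos (log2FC 2.32 ± 0.23 SE, adjusted p = 1.68e-11). The glutathione S-transferase gstp1.2 had 12379, 13321, 14360 and 13017 normalized reads in BjF embryos, against 2521, 2931 and 2622 in DMSO_A embryos (log2FC 2.30 ± 0.12 SE, adjusted p = 1.59e-22). The groups did not overlap for any of the 3 enzymes, beside 8.02% of all genes with every BjF library above every DMSO_A library. The 3 were named because they were called in these same libraries, so their separation was largely fixed by the selection. The gene gstp1.2 has a tandem copy with which reads could be shared.

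Few other members of these families were called, beside 0.480% of all genes that rose. Of 14 sulfotransferases measured 1 rose, and their median log2FC was -0.18, with a lowest value of -1.39 that was not called. Of 34 UDP-glucuronosyltransferases listed 11 were measured and 1 rose, with a median log2FC of -0.16 and a lowest, uncalled value of -0.84. Of 16 glutathione S-transferases 2 rose, the second being mgst3b with 907 to 1164 normalized reads in BjF embryos and 673 to 731 in DMSO_A embryos (log2FC 0.57, adjusted p = 0.0221), a call lost against DMSO_B (adjusted p = 0.0579) and without any 1 of 4 libraries. None of the 46 cytochrome P450 genes outside the CYP1 family passed the test (median log2FC -0.13, range -1.28 to 1.21).

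A mixed list held genes of the Nrf2 pathway, which answers electrophiles and oxidants, and other redox genes. Of its 28 measured members 4 rose, beside 0.480% of all genes. None of the 4 was a DEG. The oxidoreductase gene aifm4 had 448 to 501 normalized reads in BjF embryos and 216 to 257 in DMSO_A embryos (log2FC 0.96, adjusted p = 4.48e-05). The Nrf2 paralogue nfe2l2b had 112, 107, 75.9 and 98.3 normalized reads in BjF embryos, against 52.0, 49.4 and 51.8 in DMSO_A embryos and 28.9 to 35.0 in DMSO_B embryos. Its log2FC was 0.92 against DMSO_A (adjusted p = 0.0153), lost when BjF replicate 1 or any DMSO_A library was left out, and 1.55 against DMSO_B (adjusted p = 6.12e-08). Glutathione reductase gsr had 141 to 189 normalized reads in BjF embryos and 88.5 to 104 in DMSO_A embryos (log2FC 0.75, adjusted p = 0.00633), lost with a lane term, against DMSO_B (adjusted p = 0.101) or without DMSO_A replicate 3. The carbonyl reductase cbr1l had 692 to 949 normalized reads in BjF embryos and 472 to 519 in DMSO_A embryos (log2FC 0.68, adjusted p = 0.0045). The classical Nrf2 targets nqo1, gclc, hmox1a and srxn1 did not pass the test, with log2FC of 0.49, 0.39, -0.02 and -0.13.

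In total 166 genes passed an adjusted p under 0.05 in BjF against DMSO_A, 105 higher and 61 lower (0.279%), which is 0.760% of the genes tested. Of these 56 were DEGs (0.256%), 48 higher and 8 lower (0.0366%). Without an adjustment 2888 genes had p under 0.05. The BjF libraries were all above the DMSO_A libraries in 46 of the 48 higher DEGs and all below them in the 8 lower DEGs, beside 8.02% and 8.16% of all genes. The DEGs were selected for a difference between these same libraries, so this separation was largely fixed by the selection. Of the 56 DEGs, 51 matched a RefSeq gene. Fewer than 50 normalized reads in both group means were behind 19 of them.

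Of the 25 genes that the study places next to cyp1a in its co-expression network, 20 rose and 19 were DEGs, with a median log2FC of 1.72. Over all genes 0.480% rose and 0.220% were higher DEGs. That list was drawn from these libraries among others and is not independent evidence. Separately, the study measured some neighbours by qRT-PCR, among them fgf7, mamdc2b, pkhd1l1 and sult6b1. It reported that the dioxin TCDD induced them in wildtype embryos and left them unchanged in AHR2-null embryos. Beside the members already given, the largest rises were in LOC103910027, LOC407643 and a gene known only by its Entrez number. All of these were also in the study's qRT-PCR set, with the same reported result. LOC407643 had 1184, 1037, 1124 and 1159 normalized reads in BjF embryos, against 243, 285 and 250.2 in DMSO_A embryos (log2FC 2.12 ± 0.17 SE, adjusted p = 6.27e-15). The gene with only an Entrez number had 56.5 to 79.1 normalized reads in BjF embryos and 12.8 to 14.2 in DMSO_A embryos (log2FC 2.23, adjusted p = 0.00014). LOC103910027 had 16.9 to 34.85 normalized reads in BjF embryos and 2.85 to 10.7 in DMSO_A embryos (log2FC 2.14, adjusted p = 0.0245), and its call was lost without BjF replicate 1 or 3 or without DMSO_A replicate 2 or 3.

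Other neighbours that rose included cyb5a, ethe1, zgc:163022 and si:ch211-229d2.5. The electron carrier cyb5a, which supplies P450 enzymes, had 2680 to 3522 normalized reads in BjF embryos and 1182 to 1380 in DMSO_A embryos (log2FC 1.27, adjusted p = 1.11e-07). The mitochondrial sulfur dioxygenase ethe1 had 403 to 424 normalized reads in BjF embryos and 129 to 182 in DMSO_A embryos (log2FC 1.37, adjusted p = 1.92e-10). The log2FC was 1.55 for zgc:163022 and 1.19 for si:ch211-229d2.5. The 5 neighbours that did not pass were clcn2c, ncam3, ccn2b, zgc:153031 and LOC100332446, with log2FC from -0.91 for clcn2c to 0.73 for LOC100332446. Of these, LOC100332446 was also in the study's qRT-PCR set, with the same reported result for TCDD.

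Outside the lists, the DEGs with the highest log2FC included si:dkey-88n24.11, si:ch211-207n23.2, LOC100151490 and dhrs13l1. The dehydrogenase/reductase family gene dhrs13l1 had 695, 785, 822 and 1084 normalized reads in BjF embryos, against 204, 271 and 178 in DMSO_A embryos (log2FC 1.96 ± 0.18 SE, adjusted p = 1.98e-12). The gene si:ch211-207n23.2 had 47.4 to 82.65 normalized reads in BjF embryos and 10.4 to 14.8 in DMSO_A embryos (log2FC 2.29, adjusted p = 0.000615). LOC100151490 had 19.5 to 33.7 normalized reads in BjF embryos and 2.85 to 8.23 in DMSO_A embryos (log2FC 2.06, adjusted p = 0.00624), a call lost without DMSO_A replicate 2. The gene si:dkey-88n24.11 had 12.4 to 16.6 normalized reads in BjF embryos and 0 to 1.595 in DMSO_A embryos (log2FC 3.08, adjusted p = 8.78e-05), but its DMSO_B libraries held 4.34, 3.89, 17.2 and 12.1 and overlapped those of BjF (log2FC 0.81, adjusted p = 0.636). With voom weights on the recovered reads its call against DMSO_A was lost as well.

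In 4 of the 8 lower DEGs, all BjF libraries were below all 7 vehicle libraries, beside 1.61% of all genes. The 8 genes were selected for low values in these same BjF libraries, so that share is not a like baseline. Among the 4 was duox2. The dual oxidase duox2, which makes hydrogen peroxide, for example in thyroid hormone synthesis, had 11.1, 26.7, 6.85 and 21.6 normalized reads in BjF embryos, against 34.9, 35.9 and 37.9 in DMSO_A embryos and 35.7 to 42.98 in DMSO_B embryos (log2FC -1.25, adjusted p = 0.00795). Its call was lost without BjF replicate 3, without DMSO_A replicate 4 or when BjF, Retene and DMSO_A alone were fitted. The retinol acyltransferase lrata, which stores vitamin A as esters, had 34.81, 14.3, 17.4 and 18.8 normalized reads in BjF embryos, against 52.7, 43.9 and 45.3 in DMSO_A embryos (log2FC -1.19, adjusted p = 0.0118), lost with a lane term, against DMSO_B (adjusted p = 0.0577) or without any 1 of 4 libraries. LOC101883902, si:ch211-181d7.2, LOC100332267, igldcp and LOC108182795 had log2FC of -2.58, -1.66, -1.59, -1.45 and -1.05 with adjusted p from 0.0231 to 0.045, and each call was lost when any 1 of at least 5 of the 7 BjF and DMSO_A libraries was left out. Of these si:ch211-181d7.2 had 28.2, 29.9, 67.2 and 46.01 normalized reads in BjF embryos, against 103, 101 and 208 in DMSO_A embryos and 132 to 207 in DMSO_B embryos. LOC101883902 had 0, 1.95, 0.622 and 1.39 normalized reads in BjF embryos, against 8.54, 8.77 and 13.2 in DMSO_A embryos.

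The last of the lower DEGs was the clock repressor nr1d2a. It had 1004, 597, 788 and 657 normalized reads in BjF embryos, against 2042, 1682 and 1104 in DMSO_A embryos (log2FC -1.06, adjusted p = 7.19e-05). The DMSO_B libraries held 626, 649.5, 709 and 747 normalized reads of nr1d2a, which overlapped those of BjF (log2FC 0.13, adjusted p = 0.86). The clock repressors per1b and cry1a were also lower against DMSO_A and not against DMSO_B, and nr1d2a, per1b and cry1a all lost their calls with both vehicle groups pooled, where the log2FC of cry1a was 0.10 (adjusted p = 0.852). For per1b the BjF libraries held 952 to 1125 normalized reads, the DMSO_A libraries 1553 to 1993 and the DMSO_B libraries 657 to 960.3 (log2FC -0.77 against DMSO_A, adjusted p = 4e-05, and 0.27 against DMSO_B, adjusted p = 0.446). For cry1a the BjF libraries held 124 to 139, the DMSO_A libraries 192 to 202 and the DMSO_B libraries 66.97 to 99.2 (log2FC -0.58 against DMSO_A, adjusted p = 0.0299, and 0.61 against DMSO_B, adjusted p = 0.00524), and its call against DMSO_A was also lost with a lane term and without any 1 of 5 libraries. Of the 33 clock genes measured these 3 passed, all lower against DMSO_A, beside 0.279% of all genes that were lower. The list median was -0.16 against DMSO_A and 0.14 against DMSO_B.

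**Figure D2:**
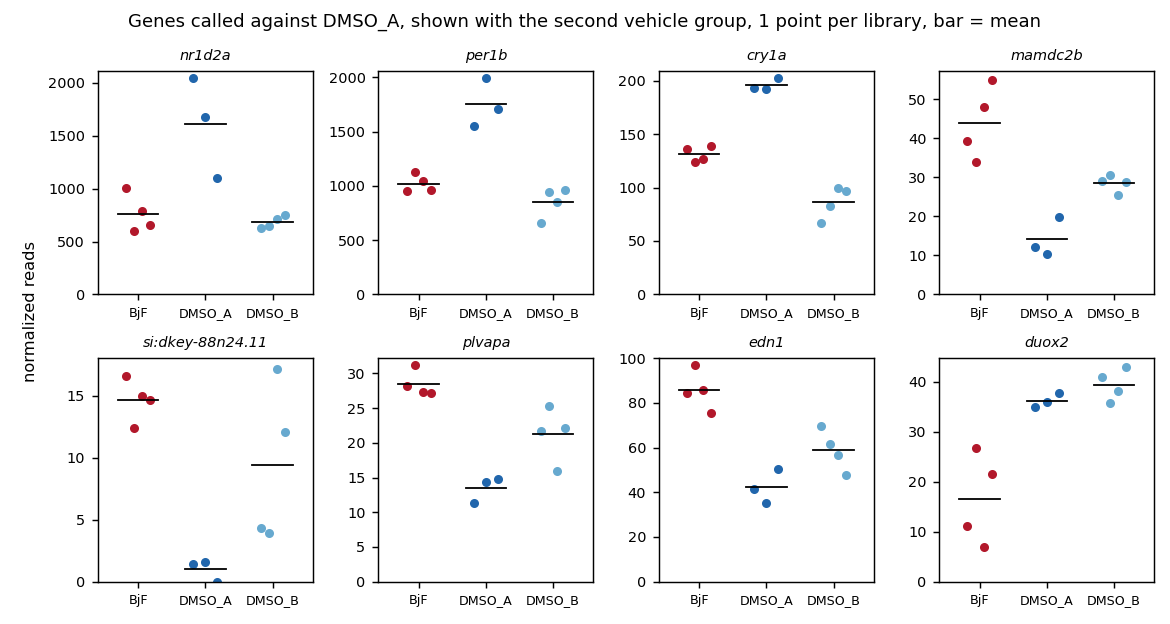
Normalized reads of 8 genes called in BjF against DMSO_A, in the 4 BjF, 3 DMSO_A and 4 DMSO_B libraries (linear scale from 0, bar at the group mean). For nr1d2a, per1b and cry1a the DMSO_A points stand above those of both other groups, whereas the duox2 points of BjF lie below all 7 vehicle points.

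Because the vehicle groups differed in some genes, the 56 DEGs were also set against DMSO_B. DMSO_A and DMSO_B differed in 7 DEGs. Of the 48 higher DEGs 35 were also higher DEGs against DMSO_B, and of the 8 lower ones 3 were, namely LOC101883902, si:ch211-181d7.2 and duox2. The 18 others included mamdc2b, edn1, plvapa and si:dkey-88n24.11 among the higher ones and nr1d2a, lrata and igldcp among the lower ones. Every one of the 48 higher DEGs had a log2FC above 0 against DMSO_B, and 43 of them were above all 7 vehicle libraries, beside 2.15% of all genes. Both contrasts used the same BjF libraries, in which these genes were selected. The repeat against DMSO_B is therefore not an independent check of BjF, and unselected genes are not a like baseline. The share of all genes with BjF below all 7 was 1.61%. DMSO_A was itself below all DMSO_B libraries in 7 of the 48 higher DEGs, beside 4.45% of all genes, and above them in 4 of the 8 lower ones, beside 5.26%.

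**Figure D3:**
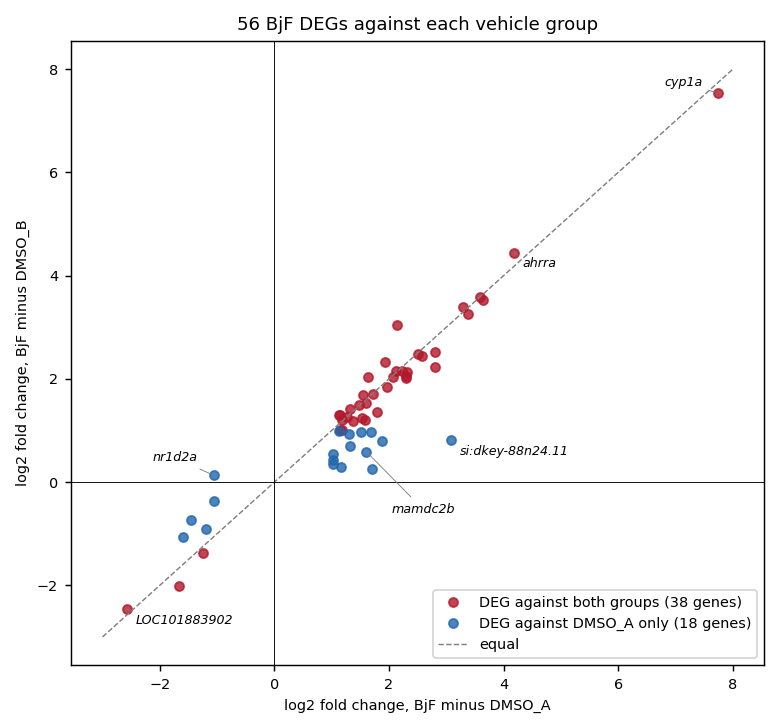
The log2FC of the 56 BjF DEGs against DMSO_A (x axis) and against DMSO_B (y axis), with a dashed line where both are equal. The 38 genes called against both groups lie near the line up to cyp1a at 7.74 and 7.54, and the 18 called against DMSO_A alone include nr1d2a at -1.06 and 0.13.

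Other pathways had few or no called members, beside 0.480% of all genes called higher and 0.279% called lower. One of 22 vascular endothelial genes rose, plvapa, a component of endothelial fenestrae, with 27.2 to 31.2 normalized reads in BjF embryos, 11.4 to 14.8 in DMSO_A embryos and 15.9 to 25.3 in DMSO_B embryos (log2FC 1.03 against DMSO_A, adjusted p = 0.0186, and 0.42 against DMSO_B, adjusted p = 0.591), lost also without any 1 of 4 libraries. Of 18 heart muscle genes nppa, the atrial natriuretic peptide, was lower, with 177 to 234 normalized reads in BjF embryos, 288 to 364 in DMSO_A embryos and 226 to 287 in DMSO_B embryos (log2FC -0.69 against DMSO_A, adjusted p = 0.00956, and -0.36 against DMSO_B, adjusted p = 0.38), lost also without BjF replicate 3 or 4 or DMSO_A replicate 3. Of 14 glucocorticoid targets pck1, the gluconeogenic enzyme, rose, with 841 to 1054 normalized reads in BjF embryos and 410 to 629 in DMSO_A embryos (log2FC 0.84, adjusted p = 0.0034), a call lost without DMSO_A replicate 2. Of 20 hypoxia genes pfkfb4b, a regulator of glycolysis, was lower against DMSO_A (log2FC -0.51, adjusted p = 0.0374) and not against DMSO_B (log2FC 0.21, adjusted p = 0.635), and was lost without any 1 of 5 libraries. Both hatching gland genes measured, with a median log2FC of -0.37, missed the threshold. No member passed among 19 p53 targets, 20 retinoic acid genes, 11 erythroid genes, 13 cartilage and jaw genes, 6 pancreatic enzymes or 14 yolk and liver genes, whose list medians lay between -0.14 and 0.04.

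Retene, a strong cyp1a inducer, allowed the BjF response to be compared with another aromatic hydrocarbon directly and without the controls. Expression of cyp1a did not separate the exposures. It was 33473 to 37629 normalized reads in BjF embryos and 35182, 29591, 36011 and 35847 in Retene embryos. The difference was 0.05 on the log2 scale (limma adjusted p = 0.993), with a 95% interval from -0.72 to 0.82. That interval is not adjusted for the number of genes, so even a difference beyond its ends could have missed the adjusted threshold.

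The CYP1C genes did separate the exposures, and both were lower in BjF. Expression of cyp1c1 was 1330 to 1471 normalized reads in BjF embryos, against 5961, 5223, 5052 and 5853 in Retene embryos, 3.89-fold higher on average in Retene (log2 difference -1.96 ± 0.17 SE, adjusted p = 5.93e-13). Expression of cyp1c2 was 266 to 320.5 normalized reads in BjF embryos, against 1189, 1258, 1194 and 1311 in Retene embryos, 4.30-fold higher in Retene (log2 difference -2.10 ± 0.16 SE, adjusted p = 2.27e-15). Over DMSO_A, cyp1a was 204-fold higher in BjF and 197-fold higher in Retene, whereas cyp1c1 was 9.83-fold higher in BjF and 38.2-fold higher in Retene, ratios that share the DMSO_A libraries. Within lane 5 the log2 difference between BjF and Retene was -0.02 for cyp1a and -1.81 for cyp1c1.

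The feedback genes leaned the same way with less certainty. For ahrra the BjF libraries held 297 to 342 normalized reads, all below the 615 to 730.0 of Retene (log2 difference -1.04, 95% interval -1.59 to -0.49, adjusted p = 0.111). Its adjusted p ranged from 9.92e-09 with voom weights to 0.342 over the alternatives, and was 0.00012 when BjF, Retene and DMSO_A alone were fitted. The log2 difference of tiparp was -0.39 (adjusted p = 0.034), with 255 to 313 normalized reads in BjF embryos and 359 to 423 in Retene embryos, a call lost with a lane term, with BjF, Retene and DMSO_A alone in the fit, or without any 1 of 6 libraries. The receptor gene ahr2 had 2331 to 2379 normalized reads in BjF embryos, all below the 2922 to 3079 of Retene (log2 difference -0.34, adjusted p = 0.162, and 0.0142 when these 3 groups alone were fitted). BjF libraries were all below the Retene libraries in 2.83% of all genes and all above them in 3.14%.

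Across all genes 19 were DEGs between BjF and Retene, 0.0869% of those tested, with 10 higher (0.0458%) and 9 lower (0.0412%) in BjF. At an adjusted p under 0.05 without the fold limit there were 43 (0.197%), 18 higher (0.0824%) and 25 lower (0.114%). The count fell to 10 without Retene replicate 4. Of the 19, 7 were also DEGs of BjF against DMSO_A. Of the 56 BjF DEGs, 49 had an adjusted p of 0.05 or more in the direct contrast, and the 7 that passed were pkhd1l1.1, LOC407643, si:dkey-247k7.2, cyp1c1, cyp1c2, fgf7 and mamdc2b.

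Among those 7 genes pkhd1l1.1, LOC407643 and si:dkey-247k7.2 were higher in BjF. The highest difference of them was in pkhd1l1.1, with 1376 to 1751 normalized reads in BjF embryos, against 744, 486, 578 and 448 in Retene embryos (log2 difference 1.497 ± 0.21 SE, adjusted p = 6.07e-06). LOC407643 had 1037 to 1184 normalized reads in BjF embryos, against 645, 573, 532 and 339 in Retene embryos (log2 difference 1.14 ± 0.16 SE, adjusted p = 4.72e-06). The gene si:dkey-247k7.2 had 191, 196, 147.5 and 221 normalized reads in BjF embryos, 71.2, 82.1, 60.4 and 74.5 in Retene embryos and 47.7, 104.5 and 42.8 in DMSO_A embryos. Its log2 difference was 1.37 (adjusted p = 0.0101), lost without BjF replicate 4 or without Retene replicate 3, and its log2FC in BjF against DMSO_A was 1.63 (adjusted p = 0.000766).

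Beside the CYP1C enzymes, fgf7 and mamdc2b were lower in BjF. The growth factor gene fgf7 had 55.3 to 86.4 normalized reads in BjF embryos, against 234, 148, 165 and 208 in Retene embryos (log2 difference -1.41, adjusted p = 0.0187). The gene mamdc2b had 33.8 to 55.1 normalized reads in BjF embryos, against 101, 95.05, 118 and 109 in Retene embryos (log2 difference -1.27, adjusted p = 0.0141). The exposures did not overlap in either gene, beside 2.83% of all genes with every BjF library below every Retene library. Both genes were selected for a difference between these same libraries, so their separation was largely fixed by the selection. Both calls were lost with a lane term (adjusted p = 0.0571 for fgf7 and 0.0507 for mamdc2b) and without any 1 of 4 libraries.

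The other 12 genes were not DEGs of BjF against DMSO_A. For mb, myhb and fabp4b the log2FC of BjF against DMSO_A was 0.16, 0.19 and 0.28, none of which passed the test. In each of these genes all BjF libraries were above all Retene libraries, beside 3.14% of all genes. The genes were named for a difference between these same libraries, so that share is not a like baseline. The oxygen-binding myoglobin gene mb had 196, 247, 233 and 237 normalized reads in BjF embryos, 91.65, 103, 104 and 120 in Retene embryos and 176.5 to 221 in DMSO_A embryos (BjF minus Retene 1.12, adjusted p = 1.31e-06). The myosin heavy chain gene myhb had 167 to 239 normalized reads in BjF embryos, 83.2 to 106 in Retene embryos and 169 to 189 in DMSO_A embryos (BjF minus Retene 1.11, adjusted p = 0.000845). The fatty acid carrier fabp4b had 282 to 360.4 normalized reads in BjF embryos, 132 to 156 in Retene embryos and 242 to 295 in DMSO_A embryos (2.16-fold higher in BjF than in Retene, adjusted p = 0.000108).

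Lower in BjF than in Retene were the peroxide-reducing enzyme prdx1 and the connective tissue growth factor ccn2b. Expression of prdx1 was 1416, 1348, 1186 and 1513 normalized reads in BjF embryos, 3191, 3160, 2346 and 2751 in Retene embryos and 1114, 1134 and 1182 in DMSO_A embryos (BjF minus Retene -1.06, adjusted p = 5.98e-06). It was the single call among the 28 redox genes in this contrast, beside 0.114% of all genes called lower in BjF than in Retene. Expression of ccn2b was 67.7 to 118 normalized reads in BjF embryos, 153 to 196 in Retene embryos and 39.9 to 71.6 in DMSO_A embryos (BjF minus Retene -1.04, adjusted p = 0.0123), a call lost without any 1 of 5 libraries. The fatty acid carrier fabp1b.2 had 19.9 to 33.8 normalized reads in BjF embryos, 55.7 to 83.6 in Retene embryos and 32.03 to 35.4 in DMSO_A embryos (BjF minus Retene -1.53, adjusted p = 0.00117).

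The calls of grid1a, tuba4l, LOC108179091 and GeneID 110439038 depended on single libraries and on the model fitted. The glutamate receptor gene grid1a had 5.602 to 11.7 normalized reads in BjF embryos and 0.705, 6.08, 0 and 0 in Retene embryos (BjF minus Retene 2.18, adjusted p = 0.0446), and was lost under 11 of 16 alternatives. The tubulin gene tuba4l differed by 1.42 (adjusted p = 0.0209), LOC108179091 by -1.71 (adjusted p = 0.0234) and GeneID 110439038 by -1.68 (adjusted p = 0.0209). Each call was lost without any 1 of several libraries. That of tuba4l was also lost with voom weights or with BjF, Retene and DMSO_A alone in the fit. Those of LOC108179091 and GeneID 110439038 were also lost with a lane term. The last 2 DEGs, npy8br and sybu, were outside the naming rule, with differences of 1.07 and 1.03. Below the fold limit, the adhesion molecule ncam3 was lower in BjF at 279 to 360.3 normalized reads, against 535 to 630.1 in Retene embryos (-0.91, adjusted p = 0.000579), and the cartilage proteoglycan acana was higher (0.60, adjusted p = 0.00715), with 281 to 308 normalized reads of acana in BjF embryos, 161 to 212 in Retene embryos and 279 to 320.1 in DMSO_A embryos. The acana call was lost without Retene replicate 2.

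For the conjugating enzymes the direct contrast gave no call, although log2 differences reached -1.95 among the glutathione S-transferases and -0.97 among the UDP-glucuronosyltransferases. The log2 difference was 0.23 for sult6b1 (95% interval -0.07 to 0.53), -0.09 for ugt1a7 (-0.51 to 0.33) and -0.15 for gstp1.2 (-0.38 to 0.08). Libraries of both exposures overlapped in ugt1a7 and gstp1.2, and the lowest sult6b1 library of BjF, at 1960, was above the highest of Retene, at 1923. For slincR the BjF libraries, at 340.4 to 467, were all above the 214 to 273.5 of Retene, and the difference of 0.70 (95% interval 0.14 to 1.25) had an adjusted p of 0.563. For wfikkn1 the BjF libraries, at 111 to 158, were all below the 204 to 273 of Retene, and the difference of -0.86 (95% interval -1.48 to -0.24) had an adjusted p of 0.468. Those adjusted p-values were 0.0494 for slincR and 0.0691 for wfikkn1 when BjF, Retene and DMSO_A alone were fitted. Over all genes, every BjF library lay above every Retene library in 3.14% and below every Retene library in 2.83%.

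**Figure D4:**
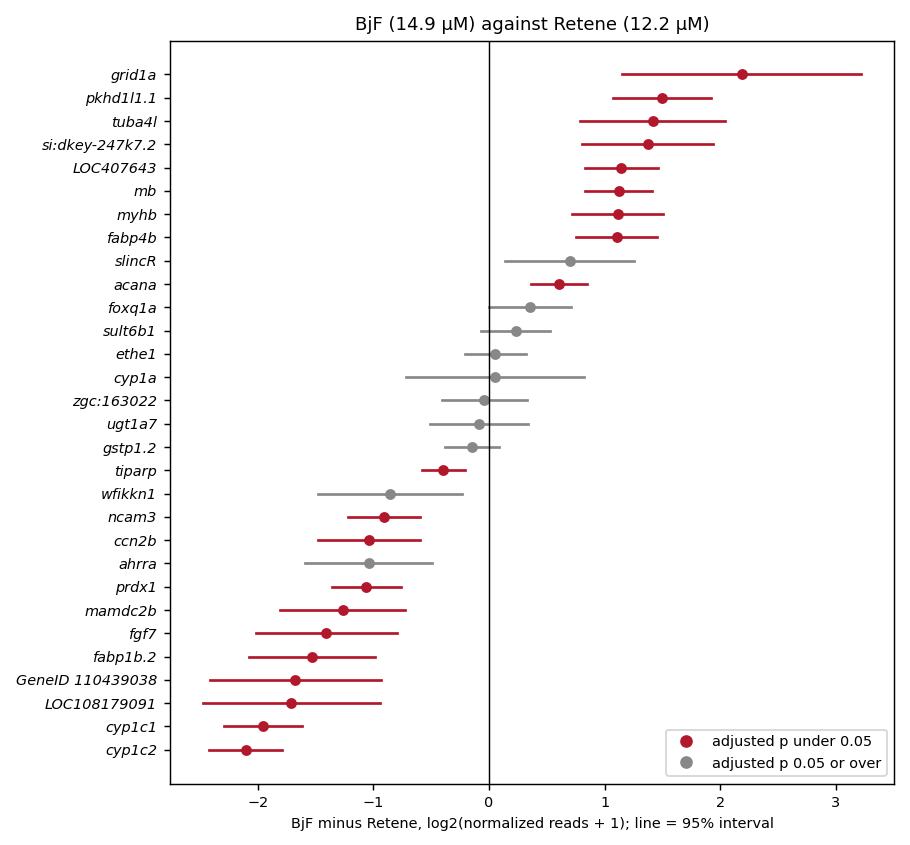
BjF minus Retene in log2(normalized reads + 1) with 95% intervals for the 20 named genes with an adjusted p under 0.05 and 10 BjF DEGs without. The cyp1a point sits at 0.05 with an interval across 0, cyp1c1 and cyp1c2 are lowest at -1.96 and -2.10, and pkhd1l1.1 is at 1.497.

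The series also holds the benzofluoranthene isomers BkF (1.9 µM, 4 libraries) and BbF (50 µM, 3 libraries), which differ from BjF in where the rings are joined and share the DMSO_A controls. Their doses differ widely, so the values stand side by side without a test. The log2FC of cyp1a against DMSO_A was 7.74 in BjF, 7.90 in BkF and 6.04 in BbF. For cyp1c1 it was 3.30 in BjF, 3.99 in BkF and 3.14 in BbF. For pkhd1l1.1 it was 3.38 in BjF, 3.84 in BkF and 1.78 in BbF, and for gstp1.2 it was 2.30 in BjF, 1.37 in BkF and 1.53 in BbF.

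The dioxin TCDD ( 1 ng/mL, 4 libraries), the classical AHR ligand, was tested in another experiment of the series against its own 4 vehicle libraries (0.1% DMSO). Those libraries share no sample with BjF. Of the 48 genes higher in BjF, 46 had a log2FC above 0 in TCDD and 29 above 1, beside 50.1% and 1.00% of all genes. The exceptions below 0 were si:dkey-88n24.11 (-0.90) and anxa5a (-0.72). The log2FC in TCDD was 7.68 for cyp1a, 5.44 for cyp1c1, 5.61 for cyp1c2 and 5.71 for ahrra, next to 7.74, 3.30, 2.51 and 4.18 in BjF, while it was 1.09 for gstp1.2 and 1.01 for ugt1a7, next to 2.30 and 2.32 in BjF. Of the 8 genes lower in BjF, 7 had a log2FC below 0 in TCDD, with a median of -0.47, beside 49.9% of all genes. Experiment and exposure cannot be told apart in this comparison, and the differences between TCDD and BjF were not tested.

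**Figure D5:**
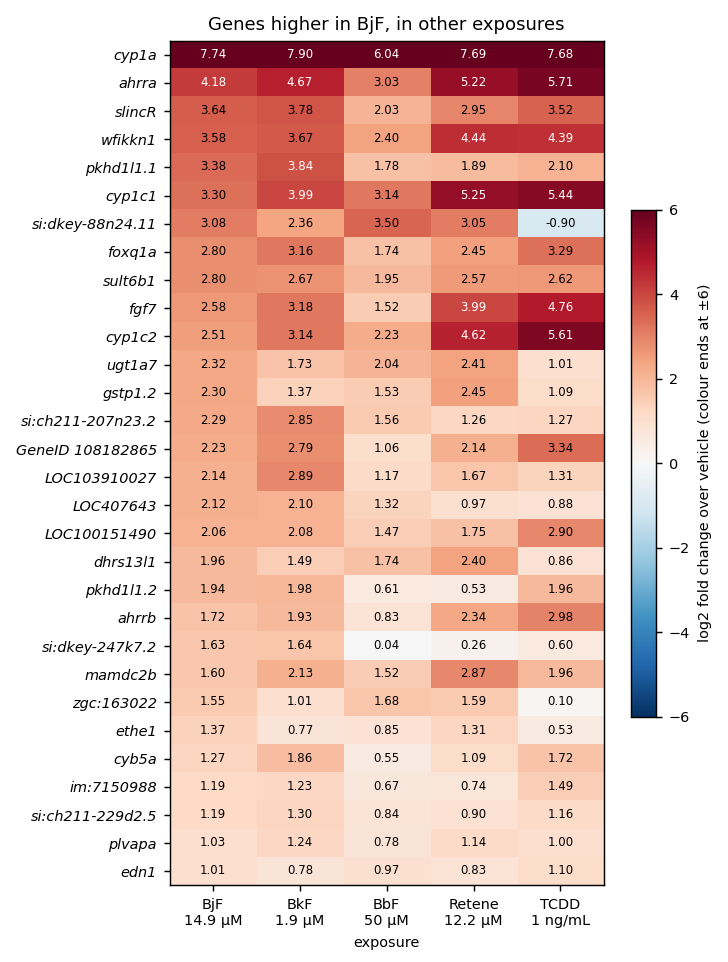
The log2FC over vehicle of the 30 named genes that were higher DEGs in BjF (rows) in BjF, BkF, BbF, Retene and TCDD embryos (columns, with doses), printed in each cell and coloured from blue to red. The first 4 columns share the DMSO_A libraries and TCDD has its own controls; cyp1a is between 6.04 and 7.90 in every column, whereas cyp1c2 ranges from 2.23 in BbF to 5.61 in TCDD.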

How the data were processed

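RNA of whole 48-hpf embryos was polyA-selected and sequenced on 6 lanes among the groups used here. Per the submitters' notes and the study's methods, the authors aligned reads to GRCz11 with STAR, counted them per gene with HTSeq, removed genes with 0 reads in at least 43 of 170 libraries and normalized with DESeq2, versions not given in the sources used here. The deposited values are log2 values after a variance-stabilizing transformation, not counts. They were turned back into normalized reads by inverting that transformation. Dividing by the step of 1 read gave whole reads (within 0.05) for 100% of values, and depth and size factors were taken from these. limma 3.58.1 (R 4.3.3) was fitted with a trend on log2(normalized reads + 1) over 70 libraries. It was tested on simulated data. Genes were named by rule: cyp1a, list members with an adjusted p under 0.05, the 20 highest and 12 lowest DEGs, and the 15 largest DEGs between BjF and Retene. Members and lists were chosen with earlier results of these data known. Of 434 listed genes 348 were measured. Names came from RefSeq by Entrez identifier. Alternatives covered pseudocount, filter, scale, voom weights, lane and replicate terms, other controls and omitted libraries.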

Additional observations from a re-analysis of the deposited data

Results flagged for a closer look

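Among the named genes, 122 groups of 4 libraries (BjF and Retene) were checked for a library far from the other 3, and chance alone would single out about 1 in 20, or 6.1 groups. There were 3 such groups. In BjF replicate 3 ahrra was lowest at 297 normalized reads, against 340 to 342 in the other BjF libraries, and this gap made up 0.961 of the group's range on the log2 scale. In Retene replicate 2 cyp1a was lowest at 29591 normalized reads, against 35182 to 36011 in the other Retene libraries, a gap of 0.881 of the range. In the same library ethe1 was highest at 429 normalized reads, against 387 to 392 in the other Retene libraries, a gap of 0.867 of the range.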

How the results depend on the processing

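The log2FC of cyp1a in BjF against DMSO_A was 7.33 to 8.08 under the alternatives run. Its difference from Retene lay between -0.0196, without Retene replicate 2, and 0.0748 when 1 library at a time was left out, and was never called. Leaving out 1 library at a time gave 39 to 56 DEGs against DMSO_A and 10 to 18 against Retene, the fewest without DMSO_A replicate 4 and without Retene replicate 4. Without the fold limit 166 and 43 genes were called. Fitting BjF, Retene and DMSO_A alone gave 84 DEGs against DMSO_A, a lane term 41 and voom weights on recovered reads 41. Against DMSO_B, pfkfb4b (0.21), cry1a (0.61), nr1d2a (0.13) and per1b (0.27) changed sign, and with both vehicle groups pooled cry1a did (0.10). The cause was not tested. Of 48 named genes with an adjusted p under 0.05 against DMSO_A, cyp1a aside, 23 kept it and their sign under every alternative run. Of 20 such genes against Retene 10 did. The fold limit was not applied to these counts. Some genes that were kept fell under it, such as si:ch211-229d2.5 against DMSO_A (lowest log2FC 0.947) and LOC407643 against Retene (lowest difference 0.950).

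Deviations of same-numbered libraries were weakly correlated, for BjF and DMSO_A (r = -0.104, -0.031 and 0.044) and for BjF and Retene (r = 0.029 to 0.078). Even so, BjF replicates 1, 2 and 4 matched the same-numbered Retene library best, and BjF replicate 4 matched DMSO_A replicate 4 best. The numbers were not taken to pair libraries, and whether they do is not settled. With a replicate block 57 genes were DEGs against DMSO_A and 19 against Retene, cyp1a had a log2FC of 7.76 against DMSO_A and 0.0479 against Retene, and no named call was lost. With 3 or 4 libraries a group and a median SE of 0.19, changes below the fold limit were often not detectable.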
